A study of Mus musculus with 12 samples.

Results

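Heat shock proteins and their DNAJ and BAG cochaperones were followed across 12 RNA sequencing libraries, each from cells of the mouse kidney cortex that had been sorted by fluorescence. A gene of the deposited table was a member if its symbol belonged to the Hspa, Hspb, Hsp90, Dnaja, Dnajb, Dnajc or numbered Bag families or was Hspd1, Hspe1 or Hsph1, and did not end in -ps. This gave 73 of 23378 genes, of which 72 code for proteins and 1, Hspa9-ps1, is a processed pseudogene. A total of 69 members had enough counts to be tested, and Hspb2, Hspa1l, Dnajb3 and Dnajc5g did not.

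All mice were C57BL/6 with the nNosCreERT2-mTmG alleles, in which an inducible Cre under control of the neuronal nitric oxide synthase gene turns a red membrane reporter green. Macula densa cells, which sense tubular salt next to the glomerulus, were sorted as green cells (2 libraries on control diet, 2 on a low salt diet with enalapril, abbreviated low salt/enalapril). Control cells were the brightest red cells, which the submitters took to represent distal tubule and collecting duct (4 libraries on each diet). Enalapril, an inhibitor of angiotensin-converting enzyme, was given at 150 mg per litre of drinking water, and the treatment lasted 14 days. Ages are not in the labels, nor is it stated that the libraries of a group came from different animals, so that p-values measure only the spread between these libraries. The green cells are defined by a single Cre driver, and the control cells by brightness alone.

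Molecular chaperones hold unfolded proteins until they fold or are handed to degradation. Hsp70 proteins bind and release clients in a cycle driven by ATP, in which J-domain proteins (the Dnaj genes) deliver clients and start hydrolysis, and BAG and Hsp110 proteins exchange the nucleotide. Hsp90 acts later on signalling proteins, small heat shock proteins bind aggregating clients, and the endoplasmic reticulum (ER) and mitochondria have their own sets, which the unfolded protein response and the mitochondrial chaperonin system use.

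Total counts per library lay between 4259020 and 14856542, of which 53.5% to 65.0% belonged to Gm42418, a gene over ribosomal RNA sequence, and nuclear protein-coding genes held 781257 to 2331481. Levels are given as CPM, the usual depth-scaled count, here relative to TMM-scaled library totals, and 3 counts equal 0.231 to 0.734 CPM. The 6 macula densa markers summed to between 2150 and 3090 CPM in the macula densa libraries and to between 44.6 and 434 CPM in the control-cell libraries. Most of this sum was Slc12a1, at a mean of 1900 and 1940 CPM in the macula densa groups, which also marks thick ascending limb. Nos1, the gene behind the Cre driver, had means of 106 and 177 CPM (control diet, low salt/enalapril) against 0.343 and 0.544 CPM in control cells. Pappa2 had 229 and 578 CPM against 0.511 and 0.803 CPM, and Ptgs2 15.1 and 142 CPM against 0.237 and 0.81 CPM. Ptges, at 4.21 and 13.9 CPM against 5.19 and 4.88 CPM, was not higher on control diet. The 8 thick ascending limb markers, Slc12a1 included, summed to between 2440 and 4320 CPM in macula densa libraries and to between 207 and 1580 CPM in control cells. The 10 proximal tubule markers summed to between 47.7 and 252 CPM and to between 11.8 and 108 CPM. The 9 principal-cell markers summed to between 11.9 and 44.8 CPM against 114 to 931 CPM. Control cells also carried podocyte and endothelial markers. The 11 endothelial markers summed to between 286 and 1740 CPM in 7 of the 8 control-cell libraries and to 58.2 CPM in replicate 4 on control diet, a library that stood apart. They summed to between 14.4 and 192 CPM in macula densa libraries.

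The members together took 1.39% and 1.47% of nuclear protein-coding counts in the macula densa libraries on control diet and 1.06% and 0.942% on low salt/enalapril. In control cells the shares of the 4 control-diet libraries were 0.866% to 1.30% and those of the 4 treated ones 0.865% to 1.09%. The ranges of the control-cell diets overlapped, and the macula densa libraries on control diet lay above all others. Of the members, 9 averaged at least 50 CPM over the 12 libraries and 29 averaged below 5 CPM.

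Levels between genes were compared per kilobase of exon. Hsp90ab1, the constitutive cytosolic Hsp90, ranked first in every group, at 201 CPM per kb in macula densa cells on control diet, 160 on low salt/enalapril, 162 in control cells on control diet and 133 on low salt/enalapril. Its per-library levels were 582 and 623 CPM in macula densa cells on control diet, 513 and 444 CPM on low salt/enalapril, 374, 616, 468 and 488 CPM in control cells on control diet and 466, 303, 487 and 338 CPM on low salt/enalapril. Control cells overlapped macula densa cells on each diet, and macula densa replicate 2 on control diet was the highest library. Behind it in macula densa cells on control diet came Hsp90b1 (GRP94, the ER Hsp90) at 73.8 CPM per kb, Hspa8 (the constitutive Hsc70) at 63.5, Hsp90aa1 (the inducible cytosolic Hsp90) at 52.0 and Bag1, a nucleotide exchange factor of Hsp70, at 38.2. On low salt/enalapril the order behind Hsp90ab1 in these cells was Hspa8 at 51.8, Bag1 at 49.9, Hspa1b (the stress-inducible Hsp70) at 46.9 and Hsp90b1 at 45.0 CPM per kb. In these 2 libraries the ranges of Bag1 and Hsp90b1 spanned those of Hspa8 and Hspa1b, so that the order of these 4 is not beyond the spread.

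**Figure D1:**
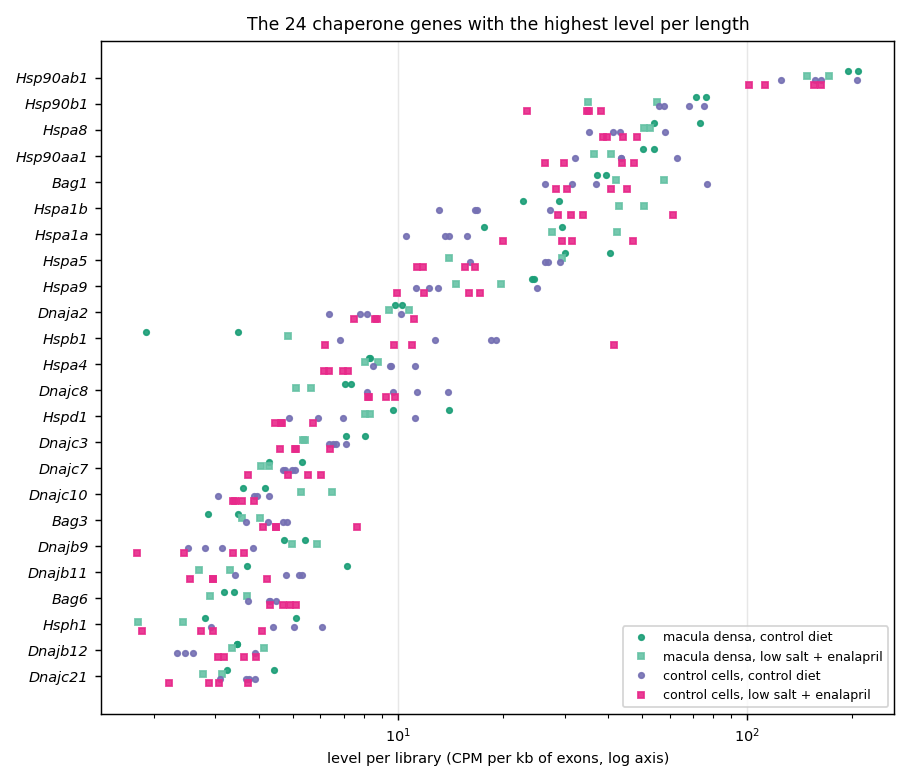
Level of the 24 members with the highest mean level per length, in CPM per kb of exon on a log axis, with 1 point per library coloured by group. Hsp90ab1 is highest in all groups, the control-diet points of Hsp90b1 and Hspa5 lie to the right of the low salt points in control cells except for 1 Hspa5 library, and those of Hspa1a and Hspa1b lie to the left.

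The comparison of cell populations asked which chaperone transcripts differ between sorted macula densa cells and the sorted control cells, which were not tubule cells alone by their markers. Averaged over both diets, 10 of 69 tested members (14.5%) passed an edgeR quasi-likelihood adjusted p of 0.05, against 21.3% of all 14180 genes tested. Of the members, 4 were higher in macula densa cells (Hspa13, Dnajb9, Hspd1 and Dnajc6; 7.48% of all genes were higher) and 6 were lower (Hspa12a, Hspa12b, Hspb1, Hspa2, Dnajc8 and Bag6; 13.9% of all genes were lower). When library totals were the only scaling, 12 were higher and 3 lower, with an all-gene median of 0.14 in place of -0.06 (log2). The median over members was 0.08 with TMM. Leaving out macula densa replicate 2 of the control diet gave 4 in place of 10. The share of all genes called with library totals alone, or without that library, is not given here. In 10 members both populations were apart on each diet in the same direction, against 13.6% of all genes.

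The members that were higher included 2 ER chaperones. Gene positions are those of GENCODE M21 on GRCm38, the mm10 build. Hspa13 (chr16:75745431-75767104, minus strand), an Hsp70-type ATPase of the microsomes, measured 7.80 and 7.25 CPM in macula densa cells on control diet, 8.43 and 7.87 CPM on low salt/enalapril, 4.92, 6.01, 4.86 and 6.20 CPM in control cells on control diet and 4.07, 3.67, 3.99 and 4.17 CPM on low salt/enalapril. All 4 macula densa libraries lay above all 8 control-cell libraries. The averaged log2 fold change was 0.74 (standard error, SE, 0.16, edgeR adjusted p 0.00646), and all 21 alternative settings kept the call.

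Dnajb9 (ERdj4, chr12:44205559-44210326, minus strand), a J-domain cofactor of BiP in ER-associated degradation, measured 12 and 13.8 CPM in macula densa cells on control diet, 12.6 and 14.9 CPM on low salt/enalapril, 7.98, 7.14, 9.81 and 6.40 CPM in control cells on control diet and 6.22, 8.57, 9.24 and 4.58 CPM on low salt/enalapril. Again every macula densa library was above every control-cell library. Averaged over diets, the log2 fold change was 0.84 (SE 0.20, edgeR adjusted p 0.0114). Leaving out macula densa replicate 2 of either diet ended the call, with adjusted p-values of 0.0579 on control diet and 0.0546 on low salt/enalapril.

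The 10 ER members were all fitted higher in macula densa cells in this averaged comparison, with a median log2 difference of 0.35 beside -0.06 over all genes, and Hspa13 and Dnajb9 were the 2 that passed, a share close to the 21.3% of all genes. Fitted higher were 6524 of 14180 genes. All 10 proximal tubule (median 1.13) and all 8 thick ascending limb markers (median 2.16) were fitted higher too, and the endothelial (median -4.37) and podocyte markers (median -4.56) lower. The part of these cell types in the chaperone values was not tested. All 10 also lay on that side under the 3 other scalings, and 9 did without macula densa replicate 2 on control diet or replicate 1 on low salt/enalapril. Hspa5 (BiP), the ER Hsp70, had an averaged log2 difference of 0.58 (SE 0.23, edgeR adjusted p 0.0858), and Hsp90b1 had 0.33 (SE 0.18, edgeR adjusted p 0.222).

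Dnajc10 (ERdj5, chr2:80315466-80354043, plus strand), an ER reductase with a J domain, differed between populations on low salt/enalapril. It measured 26.4 and 32.5 CPM in macula densa cells on that diet against 17.1, 16.9, 19.3 and 17.9 CPM in control cells, and 18.05 and 20.8 CPM against 19.8, 21.3, 15.3 and 19.4 CPM on control diet. The macula densa libraries stood above the control cells on low salt/enalapril and lay among them on control diet. Its log2 fold change was 0.73 (SE 0.20, edgeR adjusted p 0.0438) on low salt/enalapril, and the control-diet difference was 0.04 (SE 0.20, edgeR adjusted p 0.936). The difference between both, which is the difference of the diet effects, was 0.69 (SE 0.28, edgeR adjusted p 0.684). The low salt call held in 7 of 22 alternatives and was lost without any 1 of 10 libraries, with adjusted p up to 0.301 without macula densa replicate 2 on low salt/enalapril.

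Among the mitochondrial chaperones, Hspd1 (Hsp60, chr1:55077835-55088243, minus strand), the barrel of the chaperonin, was higher in macula densa cells. Its levels were 25.7 and 37.0 CPM on control diet and 21.3 and 22.0 CPM on low salt/enalapril, against 12.9, 15.6, 18.4 and 29.5 CPM and 15.1, 12.2, 11.8 and 12.3 CPM in control cells. The groups overlapped on control diet through control-cell replicate 4 and were apart on low salt/enalapril. Its log2 fold change over both diets was 0.73 (SE 0.21, edgeR adjusted p 0.0276), held in 13 of 21 alternatives, and the adjusted p reached 0.163 without macula densa replicate 2 on control diet. The mitochondrial Hsp70 Hspa9 measured 104 and 106 CPM in macula densa cells on control diet, 63.0 and 85.0 CPM on low salt/enalapril, 48.7, 52.8, 56.3 and 107 CPM in control cells on control diet and 68.8, 42.8, 73.9 and 51.2 CPM on low salt/enalapril. Both diets overlapped between populations, and Hspa9 had an averaged log2 difference of 0.49 (SE 0.23, edgeR adjusted p 0.155).

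Hspd1 shares its promoter with Hspe1 (Hsp10), the lid of the same chaperonin, which lies head to head with it on chromosome 1. The RefSeq start window of Hspe1 and the downstream one of 2 Hspd1 start windows (GRCm38.p6, 250 bases before to 50 after each start) hold the same pair of overlapping heat shock elements, each made of 3 alternating GAA units in the form GAANNTTCNNGAA or, on the other strand, TTCNNGAANNTTC. The other Hspd1 window holds no such element. The stretch is shown on the plus strand, in the direction of Hspe1, because the element is common to a gene that passed the test and one that did not. Capitals mark the elements, and the first of them begins 89 bases before the Hspe1 start. It also lies inside an annotated exon of a longer Hspd1 transcript (chr1:55088054-55088081).
Hspe1 and Hspd1 element: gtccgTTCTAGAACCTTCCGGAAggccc
Hspe1 measured 3.69 and 6.03 CPM in macula densa cells on control diet, 2.49 and 1.48 CPM on low salt/enalapril, 1.75, 1.97, 2.10 and 3.31 CPM in control cells on control diet and 3.0, 2.69, 1.89 and 1.63 CPM on low salt/enalapril. Its averaged log2 difference was 0.43 (SE 0.30, edgeR adjusted p 0.334). The exons of both genes overlap by 112 bases on opposite strands, and no source used here says that reads were counted by strand.

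Dnajc6 (auxilin, chr4:101496648-101642799, plus strand), which strips clathrin from vesicles with Hsc70 and is best known from neurons, had the largest log2 fold change of the 4 higher members. It measured 1.03 and 2.04 CPM in macula densa cells on control diet, 3.64 and 2.95 CPM on low salt/enalapril, 0.66, 0.28, 0.29 and 1.03 CPM in control cells on control diet and 0.61, 0.49, 1.26 and 0.31 CPM on low salt/enalapril. The groups met on control diet, at control-cell replicate 4, and were apart on low salt/enalapril. Over both diets the log2 fold change was 1.89 (SE 0.46, edgeR adjusted p 0.0127), and leaving out macula densa replicate 2 of the control diet gave an adjusted p of 0.0837. Of the other cochaperones of vesicle traffic, Dnajc5 and Dnajc13, neither passed.

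**Figure D2:**
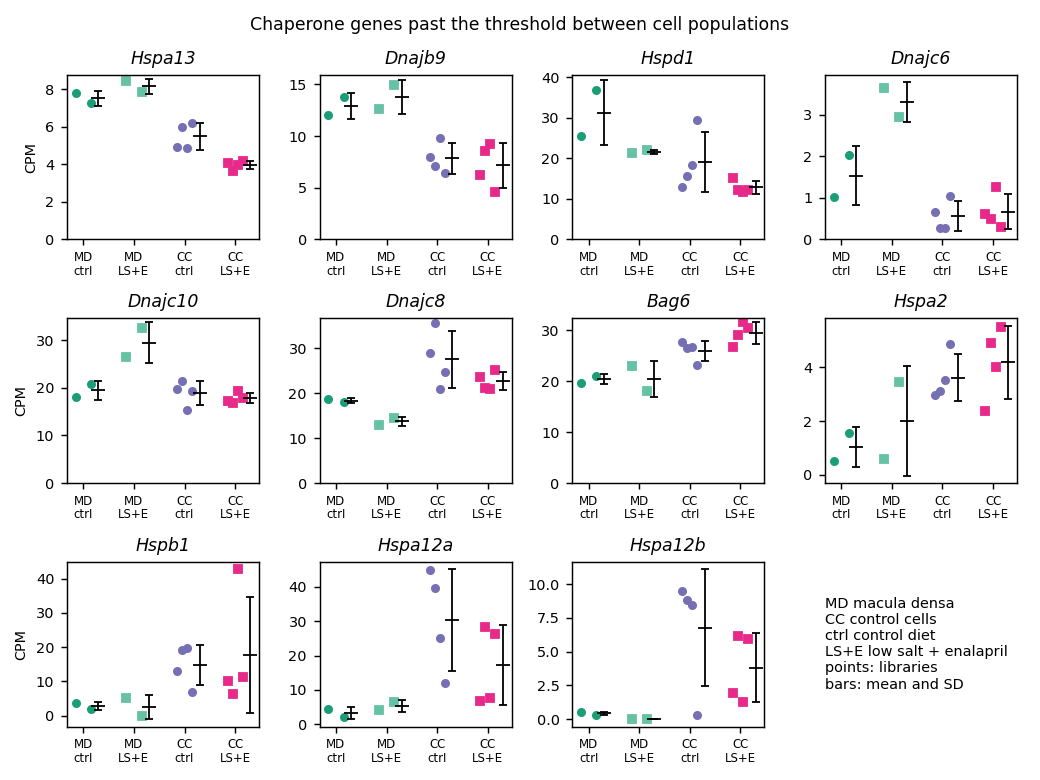
CPM of the 11 members that passed in at least 1 comparison of cell populations, with 1 point per library and bars for the mean and SD of each group (MD macula densa, CC control cells, ctrl control diet, LS+E low salt/enalapril). Points of Hspa13 and Dnajb9 in macula densa cells lie above all control-cell points, and those of Hspa12a, Hspb1, Dnajc8 and Bag6 lie below the control-cell points of the same diet.

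The lower members included 3 of the cytosolic Hsp70 class. Hspa12a (chr19:58795750-58943654, minus strand), a distant relative of Hsp70, measured 4.51 and 2.04 CPM in macula densa cells on control diet, 4.02 and 6.56 CPM on low salt/enalapril, 44.7, 39.6, 25.0 and 11.98 CPM in control cells on control diet and 6.69, 28.4, 7.77 and 26.2 CPM on low salt/enalapril. On each diet the populations were fully apart, but nearly met on low salt/enalapril. The averaged log2 fold change was -2.45 (SE 0.52, edgeR adjusted p 0.00676), and the call held in all 21 alternatives.

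Hspa12b (chr2:131127280-131146321, plus strand), whose transcript is known from endothelium, measured 0.51 and 0.33 CPM in macula densa cells on control diet and 0 counts in both libraries on low salt/enalapril. In control cells it measured 9.51, 8.83, 8.48 and 0.31 CPM on control diet and 1.92, 6.12, 1.26 and 5.90 CPM on low salt/enalapril. On low salt/enalapril it was at least 6.61-fold lower in macula densa cells, taking 3 counts per library as the floor. The averaged comparison gave an edgeR adjusted p of 0.00756, and limma voom with sample weights gave 0.157.

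Both genes were high in the libraries where endothelial markers were high. All 11 of those markers passed as lower in macula densa cells in the averaged comparison. Their sum in control cells on control diet was 1740, 1410, 958 and 58.2 CPM for replicates 1 to 4, in the same order as Hspa12b and Hspa12a. On low salt/enalapril it was 398, 979, 286 and 1370 CPM, with replicates 2 and 4 high for the markers and for both genes. In macula densa cells the sum was 192 and 29.7 CPM on control diet and 19.2 and 14.4 CPM on low salt/enalapril, where Plvap was at 0 counts. The 7 podocyte markers, of which 6 passed as lower in macula densa cells, were high in the same control-cell libraries: they summed to 1430, 1130, 716 and 42.5 CPM on control diet and to 138, 1130, 218 and 946 CPM on low salt/enalapril, against 19.7 to 166 CPM in macula densa cells. The part of endothelial or podocyte RNA in the difference of Hspa12a and Hspa12b was not tested. In bulk samples, fewer cells of a type and less RNA per cell cannot be told apart.

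**Figure D3:**
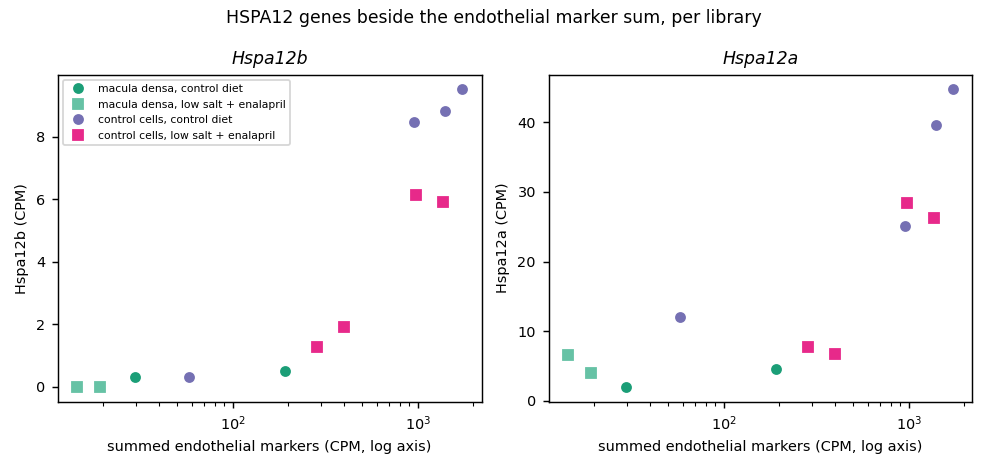
Hspa12b (left) and Hspa12a (right) in CPM against the summed CPM of 11 endothelial markers on a log axis, with 1 point per library coloured by group. Libraries with a marker sum of 958 CPM or more hold at least 5.90 CPM of Hspa12b and 25.0 CPM of Hspa12a, and all others lie below 2 CPM and at 11.98 CPM or less.

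Hspb1 (chr5:135887919-135889563, plus strand), the small heat shock protein Hsp25 of the mouse, measured 3.59 and 1.96 CPM in macula densa cells on control diet, 4.98 and 0 CPM on low salt/enalapril, 13.1, 19.1, 19.6 and 7.02 CPM in control cells on control diet and 10.1, 6.37, 42.8 and 11.3 CPM on low salt/enalapril. On each diet the populations were fully apart, and control-cell replicate 3 on low salt/enalapril was far above the rest. Averaged over diets, the log2 fold change was -2.63 (SE 0.72, edgeR adjusted p 0.0227). Leaving out macula densa replicate 2 of the control diet gave an adjusted p of 0.103, replicate 1 of that diet 0.0595 and replicate 2 of low salt/enalapril 0.0632. Leaving out replicate 1 of low salt/enalapril leaves that group at 0 counts, and no fold is given for it. None of the other 4 tested members with an Hspb symbol passed.

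Hspa2 (chr12:76404176-76406938, plus strand), an Hsp70 best known from the testis, measured 0.51 and 1.55 CPM in macula densa cells on control diet, 0.57 and 3.44 CPM on low salt/enalapril, 2.95, 3.10, 3.52 and 4.86 CPM in control cells on control diet and 2.38, 4.90, 3.99 and 5.49 CPM on low salt/enalapril. The groups were apart on control diet and overlapped on low salt/enalapril. Its log2 fold change over both diets was -1.39 (SE 0.44, edgeR adjusted p 0.0411), a call kept in 9 of 20 alternatives. Among macula densa libraries on low salt/enalapril, leaving out replicate 2 gave -2.29 (adjusted p 0.0141) and leaving out replicate 1 gave -1.02 (adjusted p 0.091).

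The remaining lower members were more abundant and changed less. Dnajc8 (chr4:132535550-132553742, plus strand), a J protein associated with pre-mRNA splicing, measured 18.8 and 18 CPM in macula densa cells on control diet, 13.0 and 14.4 CPM on low salt/enalapril, 29.0, 35.6, 20.9 and 24.7 CPM in control cells on control diet and 23.6, 21.1, 21.0 and 25.1 CPM on low salt/enalapril. All macula densa libraries lay below all control-cell libraries, and the averaged log2 fold change was -0.65 (SE 0.16, edgeR adjusted p 0.0150). With library totals alone it was -0.47 (adjusted p 0.111).

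Bag6 (chr17:35135178-35147322, plus strand), which captures tail-anchored membrane proteins and misfolded proteins, measured 19.7 and 21.1 CPM in macula densa cells on control diet, 23.0 and 18.04 CPM on low salt/enalapril, 27.8, 26.5, 26.7 and 23.1 CPM in control cells on control diet and 26.7, 29.1, 31.7 and 30.5 CPM on low salt/enalapril. The groups were apart within each diet. Over both diets the log2 fold change was -0.44 (SE 0.13, edgeR adjusted p 0.0359), and it was lost in 11 of 21 alternatives, with library totals alone at -0.24 (adjusted p 0.292). Bag6 was the 1 of 6 BAG members that passed, and Bag1 and Bag3 did not.

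The most abundant cytosolic chaperones did not pass between populations. Hspa8, which serves clients in unstressed cells, measured 232 and 314 CPM in macula densa cells on control diet, 227 and 218 CPM on low salt/enalapril, 151, 186, 250 and 177 CPM in control cells on control diet and 171, 189, 208 and 166 CPM on low salt/enalapril. The populations overlapped on control diet and were apart on low salt/enalapril, and the averaged log2 difference was 0.40 (SE 0.16, edgeR adjusted p 0.105). Hsp90ab1 and Hsp90aa1 had averaged differences of 0.29 (SE 0.18, edgeR adjusted p 0.302) and 0.13 (SE 0.21, edgeR adjusted p 0.715). Hspa1a and Hspa1b together, the stress-inducible pair, had 0.42 (edgeR adjusted p 0.22). In control cells Hsp90aa1 measured 127, 171, 171 and 248 CPM on control diet and 187, 103, 173 and 117 CPM on low salt/enalapril, with replicate 4 of the control diet above every macula densa library.

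Among the cochaperone families, 1 of 13 tested DNAJA and DNAJB members and 2 of 26 DNAJC members passed in the averaged comparison, Dnajb9 in the first family and Dnajc6 and Dnajc8 in the second, while 21.3% of all genes passed. Bag1, the most abundant BAG transcript, measured 53.1 and 50.01 CPM in macula densa cells on control diet, 56.7 and 77.9 CPM on low salt/enalapril, 35.6, 42.4, 49.8 and 103 CPM in control cells on control diet and 55.0, 38.2, 60.9 and 41.2 CPM on low salt/enalapril. Control-cell replicate 4 on control diet was the highest of all libraries, and the averaged log2 difference was 0.15 (SE 0.27, edgeR adjusted p 0.736). Bag3, a stress-inducible partner of small heat shock proteins, measured 8.93 and 7.33 CPM in macula densa cells on control diet and 9.20 and 10.3 CPM on low salt/enalapril. In control cells it measured 12.4, 9.40, 10.9 and 12 CPM on control diet and 11.5, 10.5, 19.5 and 11.5 CPM on low salt/enalapril, so that every macula densa library was below every control-cell library of its diet. The averaged log2 difference of Bag3 was -0.44 (SE 0.19, edgeR adjusted p 0.124).

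Within single diets fewer members passed. On control diet 1 member, Hspa12a, was lower in macula densa cells, with a log2 fold change of -3.22 (SE 0.76, edgeR adjusted p 0.0279), while 6.61% of all genes passed and 3.92% were lower. That count was 0 when either macula densa library or any of control-cell replicates 1 to 3 of that diet was left out, and 6 when control-cell replicate 4 was. DESeq2 called 3 members (14.1% of all genes) and limma voom 8 (13.5%). The populations were apart in 21 members, against 31.9% of all genes. On low salt/enalapril 2 members passed, both higher, Dnajc10 and Hspa13 (log2 fold change 1.03, SE 0.22, edgeR adjusted p 0.0197), while 7.27% of all genes passed and 3.15% were higher. Leaving out 1 low salt/enalapril library gave 0 (macula densa replicate 2 or control-cell replicate 4), 1 (macula densa replicate 1 or control-cell replicate 1 or 2) or 4 (control-cell replicate 3). Leaving out 1 control-diet library gave 1 (either macula densa library or control-cell replicate 1, 2 or 3) or 6 (control-cell replicate 4). DESeq2 called 7 members (13.6% of all genes), and the populations were apart in 25 members, against 34.8% of all genes. Each macula densa library shares a number in its description with 1 control-cell library of the same diet, and the labels do not say what it marks. With this number as a block, 6 members passed on control diet and 7 on low salt/enalapril. The shares of all genes called under this block or without single libraries are not given here, so those counts describe the members alone.

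The diet comparison in control cells asked how the same treatment, which drives the renin system, altered the other sorted cells. No member of 69 passed the edgeR adjusted p of 0.05, and 1 gene of 14180 did (0.00705%). At an unadjusted p under 0.05 there were 14 members, 10 lower and 4 higher on low salt/enalapril, against 6.45% of all genes, 2.44% lower and 4.01% higher. The 10 became 3 to 8 when single libraries were left out, with 3 for control-cell replicate 4 on low salt/enalapril, while the share of all genes lay between 1.48% and 3.40%. The DESeq2 Wald test called 3 members, Hsp90b1 (adjusted p 0.00632), Hspa1a (0.0115) and Hspa4 (0.0409), and 0.522% of all genes, and limma voom called none. The values that follow are therefore given as differences that did not pass in edgeR.

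Of the 10 ER members, 9 were fitted lower on low salt/enalapril in control cells (8 or 9 under every alternative), as were 7691 of 14180 genes. These 9 included 5 with an unadjusted p under 0.05, and the median of the 10 was -0.25 beside -0.04 over all genes. Leaving out single libraries gave 2 to 4 in place of 5. In the same comparison all 9 principal-cell (median -0.81), all 11 endothelial (median -0.63) and all 7 podocyte markers (median -0.44) were fitted lower, and 6 of 7 smooth muscle and renin-cell markers higher (median 0.74). Summed principal-cell markers were 144 to 931 CPM on control diet and 114 to 383 CPM on low salt/enalapril, and summed smooth muscle and renin-cell markers 144 to 198 CPM and 153 to 596 CPM. The part of these cell types in the chaperone values was not tested. Hsp90b1 measured 226, 304, 232 and 274 CPM on control diet and 142, 154, 94.5 and 140 CPM on low salt/enalapril. All 4 libraries of the second group lay below all 4 of the first, as in 2.09% of all genes tested. The log2 difference was -0.97 (SE 0.21, unadjusted p 0.000606, edgeR adjusted p 0.346).

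Hspa5 (BiP), the main ER Hsp70, measured 67.8, 123, 114 and 112 CPM in control cells on control diet and 65.7, 70.3, 47.9 and 49.7 CPM on low salt/enalapril. The groups overlapped through control-cell replicate 1 on control diet. The log2 difference was -0.83 (SE 0.27, edgeR adjusted p 0.610). Hspa13 measured less in every low salt library, with a log2 difference of -0.46 and an edgeR adjusted p of 0.724.

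Dnajb11 (ERdj3) and Dnajc3 (p58IPK), both J-domain partners of BiP, had log2 differences of -0.55 and -0.34 with edgeR adjusted p-values of 0.770 and 0.771. Dnajc3 measured 33.6, 32.6, 34.2 and 36.6 CPM on control diet and 23.7, 32.8, 26.2 and 26.0 CPM on low salt/enalapril, which overlap in 1 library. Among ER partners outside the member rule, chosen after their values were seen, Hyou1, an exchange factor of BiP, had a log2 difference of -0.66 (edgeR adjusted p 0.605), and Sdf2l1 had -1.41 (adjusted p 0.694).

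The promoters of 3 of these genes hold the ER stress element, written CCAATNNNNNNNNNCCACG or, on the other strand, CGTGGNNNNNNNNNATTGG, and are shown because the 3 genes had lower values on low salt/enalapril in both cell populations. RefSeq windows of GRCm38.p6 matched 58 of 73 members, and 3 of the 58 (5.17%) held the element, against 0.137% of 27025 genes. Dnajb11 also had lower mean values on low salt/enalapril in both populations, and its window held no such element. Capitals mark each element. The Hspa5 stretch (chr2:34772020-34772048, plus strand) is short because a longer annotated transcript covers it, and its element begins 65 bases before the RefSeq start. The Hsp90b1 stretch (chr10:86705510-86705666, minus strand) holds 2 elements in opposite directions, and the Dnajc3 stretch (chr14:118937817-118937931, plus strand) holds 1. Such matches describe the sequence and do not show that a factor bound there.
Hspa5: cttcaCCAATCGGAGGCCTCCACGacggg
Hsp90b1: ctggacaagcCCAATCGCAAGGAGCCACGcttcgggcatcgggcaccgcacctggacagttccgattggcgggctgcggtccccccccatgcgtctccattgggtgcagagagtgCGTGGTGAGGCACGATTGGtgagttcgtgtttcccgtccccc
Dnajc3: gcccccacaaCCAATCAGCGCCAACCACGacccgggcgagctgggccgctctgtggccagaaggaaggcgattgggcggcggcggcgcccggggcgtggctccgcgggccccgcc

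The inducible cytosolic Hsp70 genes had higher values on the same diet. Hspa1a measured 31.4, 40.5, 41.6 and 46.9 CPM in control cells on control diet and 93.5, 87.7, 59.4 and 140 CPM on low salt/enalapril. Hspa1b measured 36.7, 46.5, 47.0 and 76.5 CPM and 95.1, 80.5, 87.8 and 171 CPM. In both genes the groups did not overlap, as in 2.1% of all genes in this direction. The log2 differences were 1.25 for Hspa1a (SE 0.28, edgeR adjusted p 0.346) and 1.07 for Hspa1b (SE 0.28, edgeR adjusted p 0.429).

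The 2 genes are near-identical copies on chromosome 17, so reads may have been split between them. Their summed counts gave 1.15 (SE 0.27, edgeR adjusted p 0.360). The textbook heat-inducible members as a list had no common direction, since 7 of 14, Hspa1a and Hspa1b among them, were fitted higher and 7 lower, with a median of 0.01. Hsph1 (Hsp110) measured 21.2, 32.0, 43.9 and 36.7 CPM on control diet and 29.7, 21.5, 13.4 and 19.8 CPM on low salt/enalapril, a log2 difference of -0.66 (edgeR adjusted p 0.764). Dnajb1, the main partner of inducible Hsp70, had a log2 difference of 0.01 (SE 0.29).

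The remaining heat-inducible members above 5 CPM did not pass either. Dnaja1, a J partner of cytosolic Hsp70, measured 26.9, 23.3, 30.8 and 17.8 CPM in control cells on control diet and 22.9, 15.4, 15.1 and 10.9 CPM on low salt/enalapril, against 13.8 and 21.8 CPM and then 18.4 and 19.5 CPM in macula densa cells. The control-cell diets overlapped (log2 difference -0.61, edgeR adjusted p 0.732), and the macula densa libraries lay within the control-cell range. Dnajb1 measured 2.95 to 9.20 CPM over all 12 libraries, and both extremes were macula densa libraries on low salt/enalapril. Dnajb4, a J protein of the same class, measured 5.78 and 6.77 CPM in macula densa cells on control diet, 9.0 and 6.73 CPM on low salt/enalapril and between 7.83 and 10.3 CPM in the 8 control-cell libraries. Hspa4l, an Hsp110 relative, measured 15.9 and 16.5 CPM in macula densa cells on control diet, 18.6 and 12.8 CPM on low salt/enalapril and between 6.23 and 17.1 CPM in control cells, where replicate 4 on control diet was the highest. Hsph1 measured 20.3 and 37.1 CPM in macula densa cells on control diet and 17.6 and 13.1 CPM on low salt/enalapril, with the treated libraries below.

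Hspa4, an Hsp110 exchange factor, measured 46.8, 52.6, 52.7 and 61.8 CPM in control cells on control diet and 38.4, 35.0, 34.0 and 39.7 CPM on low salt/enalapril. The groups were apart, and the log2 difference was -0.54 (SE 0.15, edgeR adjusted p 0.482). Dnajb6, a J protein that keeps aggregating proteins soluble, measured 10.4, 9.21, 12 and 11.4 CPM on control diet and 16.5, 13.7, 13.7 and 13.5 CPM on low salt/enalapril. Its log2 difference was 0.42 (edgeR adjusted p 0.719). In all, 6 of 69 members had groups apart in this comparison, against 4.2% of all genes.

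A heat shock element, in the form given for Hspe1, was present in the RefSeq windows of 4 of 58 members (6.9%), Dnajb6, Hspd1, Hspe1 and Hsph1, against 0.662% of all genes. Hspd1 and Hspe1 share the same stretch, which is counted for both genes. The Hsph1 element begins 15 or 36 bases after the start, depending on the window. The Dnajb6 stretch (chr5:29735847-29735869, plus strand) is shown because Dnajb6 had groups apart in control cells, higher on low salt/enalapril. Its element lies inside an annotated exon. In control cells Hspd1 and Hsph1 had lower means on low salt/enalapril with overlapping diets. Hspe1 had means of 2.28 CPM on control diet and 2.30 CPM on low salt/enalapril there.
Dnajb6: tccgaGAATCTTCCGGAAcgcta
No match was found in the windows of the other 54 members, which says only that these letters are not within those windows.

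**Figure D4:**
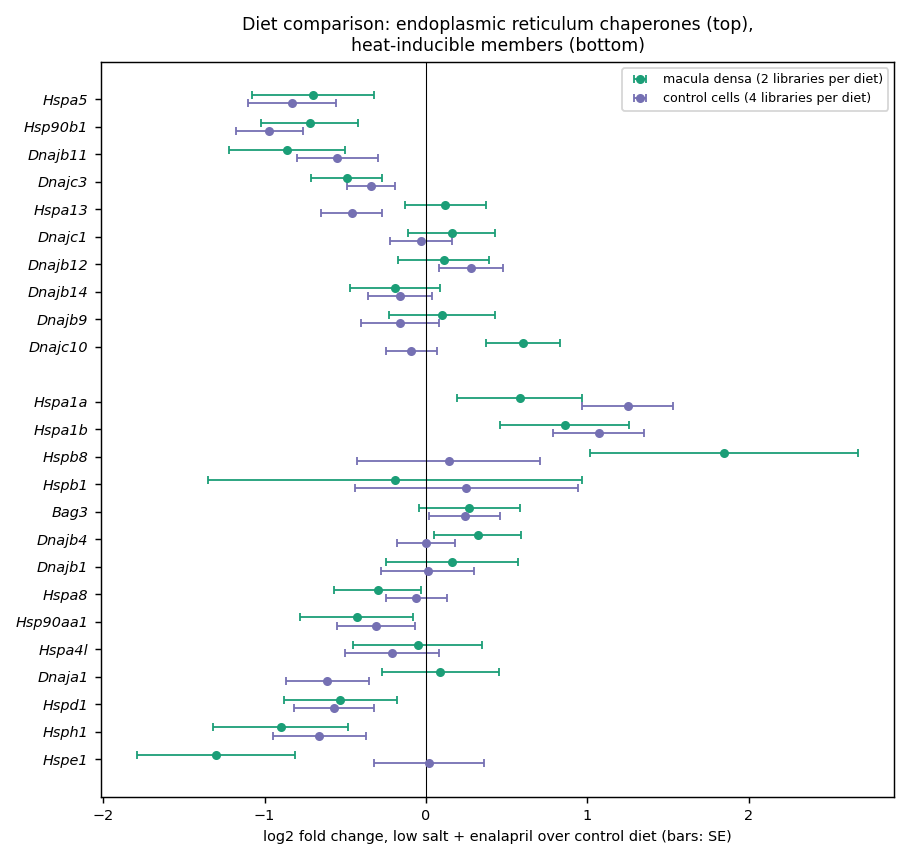
Log2 fold change of low salt/enalapril over control diet with its standard error from the edgeR fit, for the 10 ER members (top) and the 14 heat-inducible members (bottom), in macula densa cells (2 libraries per diet) and control cells (4 libraries per diet). Values of Hspa5, Hsp90b1, Dnajb11 and Dnajc3 lie below 0 and those of Hspa1a and Hspa1b above 0 in both populations, and none passed an adjusted p of 0.05.

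The same diet comparison was made in macula densa cells. No member and no gene of 14180 passed the edgeR adjusted p of 0.05 (0.0%). At an unadjusted p under 0.05 there were 9 members (13.0%), 7 lower and 2 higher, against 11.2% of all genes, 5.73% lower and 5.51% higher. DESeq2 (0.656% of all genes) and limma voom (0.0282%) called no member. Of the macula densa libraries, leaving out replicate 2 on low salt/enalapril gave 1 in place of the 7, leaving out replicate 2 on control diet gave 3, and leaving out replicate 1 on low salt/enalapril gave 12. Each of these fits leaves a single library in its group, and the share of all genes in them is not given here. In 27 of 69 members both low salt libraries lay below both control-diet libraries, against 21.8% of all genes, and in 11 they lay above, against 18.8%.

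The 3 smallest p-values belonged to Hspb7, Dnajb2 and Hspe1. Hspb7, a small heat shock protein of heart and muscle, had 8 and 13 counts on control diet and 1 and 0 counts on low salt/enalapril, and was at least 1.64-fold lower against the floor of 3 counts per library. Dnajb2, a J protein that passes clients to the proteasome, measured 7.59 and 7.66 CPM on control diet and 4.60 and 4.43 CPM on low salt/enalapril, a log2 difference of -0.76 (SE 0.28, edgeR adjusted p 0.360). Hspe1 had a log2 difference of -1.30 (SE 0.49, edgeR adjusted p 0.365). In each of the 3 genes both low salt libraries lay below both control-diet libraries.

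Of the 8 mitochondrial members, 7 were fitted lower on low salt/enalapril in macula densa cells under each scaling tried, with a median of -0.52 beside -0.02 over all genes, of which 7301 of 14180 were fitted lower. In the same comparison all 10 proximal tubule markers were fitted lower (median -1.01), and their sum was 150 and 252 CPM on control diet and 47.7 and 111 CPM on low salt/enalapril. Thick ascending limb markers summed to 3440 and 4320 CPM and then to 2440 and 2590 CPM, and intercalated-cell markers to 21.5 and 22.5 CPM and then to 57.5 and 72.2 CPM. All 11 endothelial (median -2.63) and all 7 podocyte markers (median -2.51) were also fitted lower. The part of these cell types in the chaperone values was not tested. Hspa9 had a log2 difference of -0.50 (SE 0.39, edgeR adjusted p 0.657). Hspd1 had -0.53 (SE 0.35, edgeR adjusted p 0.593). Dnajc15, a J protein of the import motor, measured 4.62 and 7.98 CPM against 3.45 and 1.31 CPM (log2 difference -1.42, edgeR adjusted p 0.374). The low salt libraries were below the control-diet ones in all 3 genes.

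The 3 Hsp90 genes were also lower in value in both low salt macula densa libraries. Hsp90aa1 measured 197 and 212 CPM on control diet and 143 and 160 CPM on low salt/enalapril. Hsp90b1 measured 307 and 288 CPM on control diet and 222 and 141 CPM on low salt/enalapril, a log2 difference of -0.72 (SE 0.30, edgeR adjusted p 0.399). Hspa5 measured 127 and 172 CPM and then 124 and 59.1 CPM, a log2 difference of -0.70 (SE 0.38, edgeR adjusted p 0.521). In Hspa5 low salt replicate 2 was far below replicate 1, which nearly met the control-diet range.

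Other ER members had values on the other side of 0 in macula densa cells, with 5 of 10 fitted higher and 5 lower. Dnajc10 had a log2 difference of 0.60 (SE 0.23, edgeR adjusted p 0.370). Hspa1a measured 87.2 and 52.3 CPM on control diet and 82.0 and 126 CPM on low salt/enalapril, which overlap. Hspa1b measured 80.9 and 63.7 CPM and then 121 and 142 CPM, which do not. Their summed log2 difference was 0.73 (SE 0.38, edgeR adjusted p 0.502). Hspb8, a small heat shock protein that works with Bag3, measured 1.13 and 2.04 CPM on control diet and 11.1 and 0.66 CPM on low salt/enalapril, so its log2 difference of 1.85 rested on 1 library and ranged from -1.33 to 2.73 over the alternatives.

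Immediate early genes, whose transcripts also rise when tissue is dissociated, were read beside Hspa1a and Hspa1b. The 21 genes of this list summed to 146 and 150 CPM in macula densa cells on control diet, 228 and 297 CPM on low salt/enalapril, 324 to 425 CPM in control cells on control diet and 465 to 624 CPM on low salt/enalapril. The low salt libraries were higher within each population, as for Hspa1b. Control cells lay above macula densa cells on both diets, where Hspa1a and Hspa1b did not. In the averaged comparison of populations 16 of 19 tested genes of the list passed as lower in macula densa cells and 1 as higher. Of all genes 13.9% were lower and 7.48% higher there. On control diet alone 7 passed as lower, and on low salt/enalapril 6. Their part in the Hspa1a and Hspa1b values was not tested.

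**Figure D5:**
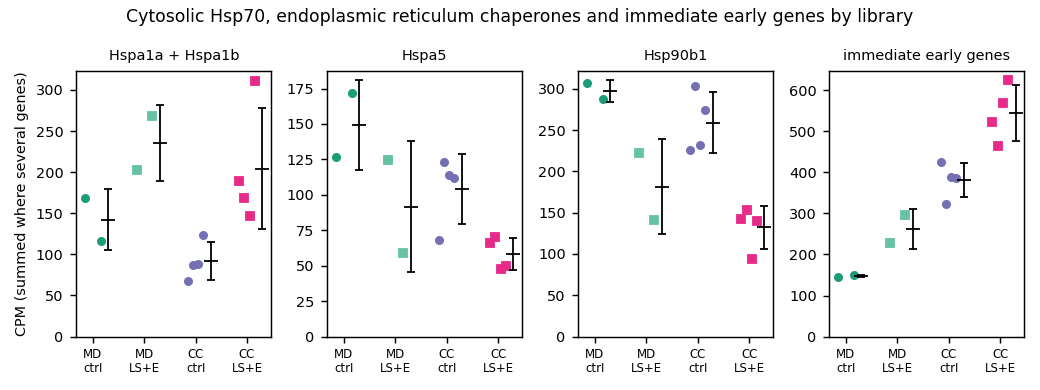
Summed CPM of Hspa1a and Hspa1b, CPM of Hspa5 and of Hsp90b1 and summed CPM of 21 immediate early genes, with 1 point per library and bars for the mean and SD of each group (MD macula densa, CC control cells, ctrl control diet, LS+E low salt/enalapril). Low salt/enalapril libraries are higher than control-diet libraries of the same population in the first and last panels and lower for Hsp90b1.

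The difference of the diet effects between both populations was tested as an interaction. No member and no gene passed (edgeR, 0.0%), and 4 members against 7.03% of all genes had an unadjusted p under 0.05: Hspb7, Dnajc10, Hspa4 and Hspe1. DESeq2 (0.0917% of all genes) and limma voom (0.0%) called none of the members. Hspa4 measured 45.8 and 45.5 CPM in macula densa cells on control diet and 44.6 and 48.6 CPM on low salt/enalapril, while the control cells were lower in value on low salt/enalapril. The interaction was 0.57 (SE 0.26, edgeR adjusted p 0.709). For Hspa5 it was 0.13 (SE 0.46) and for Hsp90b1 0.25 (SE 0.36), so the error allowed differences in either direction. For the summed Hspa1a and Hspa1b it was -0.42 (SE 0.46).

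Genes of the same pathways outside the member rule gave few calls. None of 5 tested heat shock factors and regulators passed in any of the 6 comparisons. Hsf1, the main activator of the heat shock response, had an averaged log2 difference between populations of -0.44 (edgeR adjusted p 0.262), and Hsf2 had -0.48 (adjusted p 0.184). Of 17 Hsp90 cochaperones 1 was higher in macula densa cells in the averaged comparison, Fkbp4 (log2 fold change 0.65, SE 0.20, edgeR adjusted p 0.0359), an immunophilin of steroid receptor complexes, while 7.48% of all genes were higher. Of 12 Hsp70 cochaperones outside the rule 1 was higher, Sil1 (log2 fold change 0.76, SE 0.22, edgeR adjusted p 0.0315), an exchange factor of BiP.

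Of 14 chaperonin and prefoldin genes, Vbp1, a prefoldin subunit, was higher in macula densa cells on low salt/enalapril (log2 fold change 1.10, SE 0.28, edgeR adjusted p 0.0381), while 3.15% of all genes were higher. None of the 14 passed in the averaged comparison. Of 8 other stress chaperones, Cryab, the small heat shock protein alpha B-crystallin, was lower in the averaged comparison (log2 fold change -4.09, SE 0.53, edgeR adjusted p 0.000376), while 13.9% of all genes were lower. Cryab also passed as lower on each diet alone, where 3.92% (control diet) and 4.13% (low salt/enalapril) of all genes were lower. It measured 2.28 and 5.33 CPM in macula densa cells on control diet, at most 1.15 CPM on low salt/enalapril and 25.8 to 38.0 CPM in control cells on control diet and 6.51 to 23.1 CPM on low salt/enalapril. On each diet the populations were fully apart. No gene of these 5 lists passed in either diet comparison or in the interaction.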

How the data were processed

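RNA from sorted cells was sequenced in 12 libraries made with a stranded total-RNA kit, per the labels' protocols. The authors' deposited table holds one estimated count per gene and library, with 16.1% of values not whole, which were rounded. Per the submitters' processing notes, STAR 2.61, Partek and the mouse build mm10 were used; whether counting used strand is not given in the sources used here. Symbols, starts and ends of all 73 members matched GENCODE M21, which gave exon lengths. Exons of 22 members overlap another gene of the table, 4 of them over more than 20% of their length (Hspa1l, Dnaja4, Hspb2 and Dnajc30).

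Genes were kept by filterByExpr of edgeR 4.0.16 in R 4.3.3 (count minimum 10, total minimum 15; 14180 genes), scaled by TMM and tested in 1 quasi-likelihood fit (glmQLFit, glmQLFTest) with a coefficient per group over all 12 libraries. All groups shared the spread of each gene, so errors and p-values of the macula densa diet comparison also reflect the spread of control cells. Benjamini-Hochberg adjusted p under 0.05, over all genes tested, counted as a call. The averaged comparison is the mean of both diets' differences. A group whose libraries all held at most 3 counts was at the floor, which covers counting error only. Groups were called apart when no library of one lay within the range of the other.

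Tested members with a mean of at least 5 CPM that passed, the 3 smallest p-values where none passed, the 5 highest members, and textbook heat-inducible and organelle Hsp70, Hsp60, Hsp10 and Hsp90 members of at least 5 CPM were described by library (some by range). Other lists gave at most 3 genes per direction, plus Hsf1 and Hsf2. Dnajc6, Hspa2 and Hspa12b passed below 5 CPM and were described too. The members and lists were chosen with earlier results of these data known.

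Alternatives were DESeq2 1.42.0 size factors, library totals alone, no filter, a mean of 5 CPM, no mitochondrial and ribosomal-RNA-overlapping genes, the DESeq2 Wald test, limma 3.58.1 voom with sample weights, only the groups compared, blocks by numbers in the labels, leaving out each library, and summing Hspa1a and Hspa1b. Counts were also simulated with 200 genes changed 4-fold, all drawn from genes with a mean above 5 CPM. The fit recovered 95.5% of them in the averaged comparison (13547 genes) and 88.5% for the diets in control cells (13638 genes). Between populations it recovered 74.0% on control diet (13716 genes) and 70.0% on low salt/enalapril (13670 genes). It recovered 50.0% for the diets in macula densa cells (13485 genes) and 14.5% for the interaction (13779 genes). These rates are for 4-fold changes and say nothing of smaller ones, such as the diet differences given for Hspa1a and Hsp90b1 in control cells. They also do not cover the 29 members below 5 CPM. No pair of libraries of a group agreed within counting noise.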

Additional observations from a re-analysis of the deposited data

Results flagged for a closer look

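In groups of 4 control-cell libraries, 9 of 138 combinations of member and group had 1 library apart from the other 3 by Dixon's test, and chance gives about 6.9. Values are log2 CPM. On control diet Hspa5 measured 6.09 in replicate 1, Dnajc11 3.11 in replicate 3, Dnajc17 2.13 in replicate 2 and Hspa12b -0.89 in replicate 4. The low Hspa5 library is the one that overlaps the low salt/enalapril range, and the Hspa12b library is the one with the endothelial marker sum of 58.2 CPM. On low salt/enalapril Bag3 measured 4.30 in replicate 3, Dnajb6 4.07 in replicate 1, Dnajc11 3.29 in replicate 4, Dnajc19 2.55 in replicate 2 and Hspb8 2.36 in replicate 2. Replicate 3, where Bag3 stood high, also held the highest Hspb1 level, 42.8 CPM.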

How the results depend on the processing

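For the members that passed, or had the 3 smallest p-values where none did, 390 alternative values kept their side of the threshold. A call was lost in 68 values and gained in 2, and none of these values changed sign. The 390 also count members that had not passed and again did not, whereas all 68 losses fell on members that had passed. Other members did change sign, such as Hspb8 between diets in macula densa cells (-1.33 to 2.73). On control diet the 1 member called between populations became 3 with DESeq2, 8 with limma voom, and 0 to 6 without single libraries. On low salt/enalapril 2 became 7 with DESeq2, 4 with library totals alone, 1 without a filter, and 0 to 6 without single libraries. The averaged count of 10 was 4 to 14 without single libraries. In control cells the diet count of 0 became 3 with DESeq2. The labels do not say that a replicate number marks an animal, and the libraries were not treated as paired. Numbers in the descriptions gave correlations of -0.0371 to 0.227, and title numbers gave -0.227 to 0.252 between populations. The library with the same description number correlated best for 1 of 4 macula densa libraries. The 2 macula densa libraries of a diet have mirror-image deviations from their group mean, so these correlations cannot decide whether libraries were paired. A block by the description number gave 6 calls on control diet and 7 on low salt/enalapril. The averaged count with the description number as block is not given here. A block by the title number gave 0 on either diet and 6 averaged. The shares of all genes called under a block, without a filter, with library totals alone or without single libraries are not given here. The description block was not run for the diet comparisons, whose diets share no such number. Fits of only the groups compared were not run where all groups enter. Depth limits the 29 members below 5 CPM, and 2 libraries per diet limit macula densa cells.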
